A study of Homo sapiens with 18 samples.

Results

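The genes described here are 54 genes of DNA replication and S-phase entry, chosen by gene symbol from the 62830 genes of the deposited expression table. They cover the loading and firing of replication origins, the replicative helicase, the polymerases, the sliding clamp, Okazaki fragment processing, fork protection, nucleotide supply, chromatin assembly behind the fork, and the E2F factors with some of their well-known targets. A level of at least 1 FPKM (fragments scaled by transcript length and library size) in at least 3 of 18 libraries was reached by 53 of the 54, and E2F2 was the exception.

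RNA was sequenced from MDA-MB-231, a human breast cancer cell line that lacks hormone receptors. Each of the 6 groups had 3 libraries. The cells were wild type or carried a knockout of TRIM27, and each genotype was sequenced untreated, after 2 µM olaparib for 24 h, or after siRNA against PARP1 (siPARP1, labelled 100 pM) for 48 h. TRIM27 is a tripartite motif protein with ubiquitin ligase activity, and olaparib inhibits the DNA repair enzymes PARP1 and PARP2. The treatment protocol mentions DMSO (a solvent) and non-targeting siRNA controls, but none of these libraries carries a label for either. Libraries labelled with the genotype alone, called untreated here, are therefore the only controls for both treatments. Whether those cells received solvent or control siRNA is not stated. The labels do not say whether the knockout is a single clone, nor whether the 3 libraries of a group are separate cultures. The p-values therefore reflect the spread among these libraries alone, and that spread may be technical.

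A cell prepares each origin in G1, when the origin recognition complex, CDC6 and CDT1 load the ring-shaped MCM2-7 helicase onto DNA. On entry into S phase, CDC45 and the GINS complex bind MCM2-7 to make it an active helicase, and polymerase alpha with primase starts the strands that polymerases delta and epsilon extend on the PCNA clamp. Many of these genes are transcribed under E2F factors, which are held by the retinoblastoma protein until G1 cyclin-dependent kinases release them.

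The labels were checked on the targeted genes. TRIM27 lay between 1.18 and 1.65 FPKM in untreated wild-type libraries and between 0.547 and 0.665 FPKM in untreated knockout libraries, a lower but present level. PARP1 lay between 54.5 and 59.1 FPKM in untreated wild-type cells and between 9.94 and 11.7 FPKM after siPARP1. The mesenchymal marker VIM (1560 to 2710 FPKM) and CD44 (177 to 458 FPKM) were high in every library. ESR1, PGR, CDH1, EPCAM and FOXA1 did not pass 0.532 FPKM, whereas ERBB2 (14.4 to 32.4 FPKM) and GATA3 (13.0 to 31.6 FPKM) were present. CD3E was listed at 0 throughout, PTPRC reached at most 0.0476 FPKM, and the 6 leukocyte and endothelial markers summed to between 0.0924 and 1.24 FPKM. Libraries summed to 812699 to 910313 FPKM, and the most frequent ratio between low values gave relative depths of 0.748 to 1.237, with wild-type untreated library 1 as the unit.

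Replication genes fell as a block in olaparib-treated wild-type cells. Of the 53 tested members, 51 fell, none rose, and 2 (GINS1 and POLE) did not pass the test (limma on log2(FPKM + 1), Benjamini-Hochberg adjusted p under 0.05 over all 15764 tested genes). In the same comparison 20.4% of all tested genes were called lower and 24.9% higher. At an unadjusted p under 0.05 in limma the members' counts were 53 lower and 0 higher. All-gene shares, here and below, are at the adjusted threshold, and none was counted at the unadjusted one. The members' median log2 change was -0.94, against 0.03 over all tested genes, and 25 members changed by -1 or lower. In knockout cells 47 members fell and 1, TYMS, rose under olaparib, where 22.0% of all genes were called lower and 25.2% higher. The median there was -0.84 against 0.033.

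After siPARP1 the members fell less far. In wild-type cells 41 of 53 fell and 0 rose, with a median of -0.55 against 0.072 over all genes, and 22.3% of all genes were called lower and 29.5% higher. In knockout cells 37 fell and 0 rose, with a median of -0.50 against 0.07, beside 22.8% of all genes lower and 31.9% higher. At an unadjusted p under 0.05 in limma the members' counts were 43 and 38 lower, with 0 higher in both and no all-gene share counted at that threshold. GINS4 alone passed a log2 change of -1 in wild-type cells, and GINS4 and TK1 did in knockout cells. Across both treatments and both genotypes, 34 members fell in all 4 comparisons, which share the untreated libraries of each genotype. The share of all tested genes that did so was not counted, so this overlap has no background to be read against.

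The summed level of the 54 members showed the same order. The sum was 1407 ± 41.3 FPKM in untreated wild-type cells and 1241 ± 12.2 FPKM in untreated knockout cells (SD, n = 3). It was 742.5 ± 20.3 and 757.3 ± 15.4 FPKM under olaparib, and 988.7 ± 27.3 and 882.7 ± 34.9 FPKM under siPARP1, for wild type and knockout respectively. No olaparib library passed 767.4 FPKM and no siPARP1 library fell below 843.5 FPKM, so the treatments did not overlap with each other or with the untreated libraries, whose lowest value was 1228.4 FPKM. In bulk RNA, fewer cells in S phase and less RNA per cell cannot be told apart. FPKM values are shares of a library, and mitochondrial transcripts took 19.0 to 22.06% of the FPKM of named genes in untreated libraries but 23.5 to 28.19% in treated ones. Rescaling each library over its named genes gave 53, 48, 45 and 44 members lower in the 4 treatment comparisons, in the order olaparib and siPARP1, each wild type first. The all-gene medians after rescaling were 0.0, -0.022, -0.028 and -0.037 in the same order, each lower than before it. No share of all genes called lower is given at this setting, so these counts have no background of their own.

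**Figure D1:**
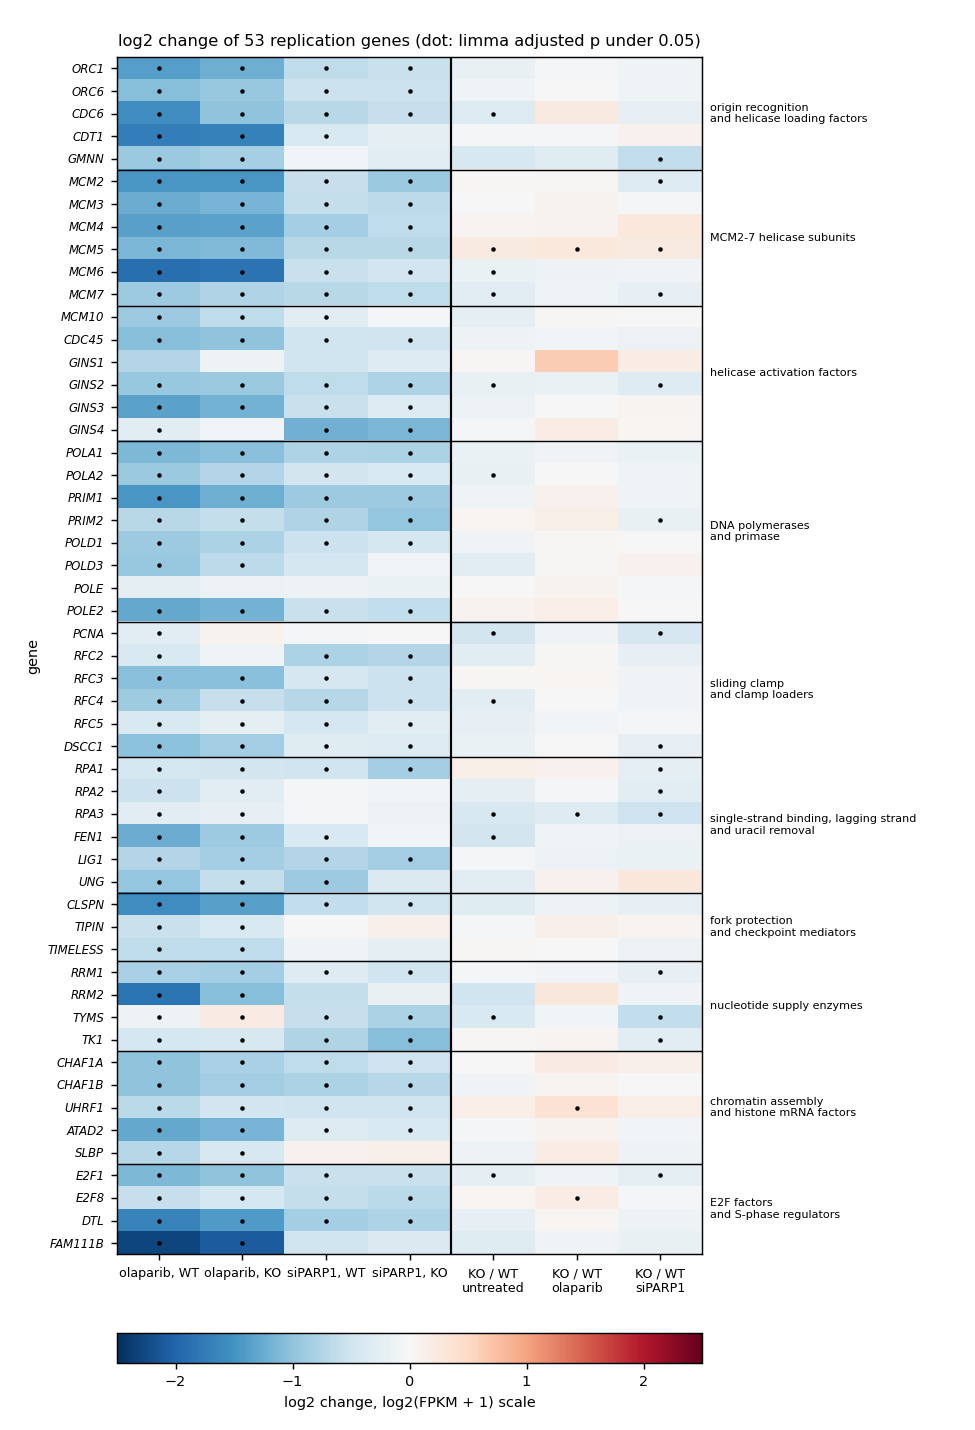
Log2 changes of the 53 tested members (rows, by role) in 4 treatment comparisons and 3 genotype comparisons (columns), on the log2(FPKM + 1) scale, with a dot where limma's adjusted p was under 0.05. Blue fills both olaparib columns, the siPARP1 columns are paler, and the genotype columns are close to white apart from single genes.

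The promoters of members with large and small responses are shown with the letters of an E2F-type site, because E2F factors are the shared regulators best known for these genes. The stretches below are RefSeq sequence of GRCh38.p14, 120 bases each, 5′ to 3′ on the strand of the gene. They lie upstream of a RefSeq start. By the GENCODE 29 gene positions used elsewhere here, the CDT1 and DTL stretches lie inside the gene, and those of TYMS, E2F1 and PCNA run into it. Capitals mark any match to TTTCCCGC, TTTCGCGC, TTTGCCGC or TTTGGCGC on either strand, where matches may overlap. MCM6, CDT1, DTL and E2F1 fell strongly under olaparib, whereas PCNA and TYMS changed little.
MCM6, chr2:135876494-135876613, minus strand: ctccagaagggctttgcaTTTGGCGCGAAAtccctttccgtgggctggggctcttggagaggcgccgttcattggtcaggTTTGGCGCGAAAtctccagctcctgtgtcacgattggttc
CDT1, chr16:88803669-88803788, plus strand: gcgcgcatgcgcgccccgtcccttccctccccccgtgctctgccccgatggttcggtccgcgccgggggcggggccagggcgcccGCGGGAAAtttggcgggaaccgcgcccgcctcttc
DTL, chr1:212035628-212035747, plus strand: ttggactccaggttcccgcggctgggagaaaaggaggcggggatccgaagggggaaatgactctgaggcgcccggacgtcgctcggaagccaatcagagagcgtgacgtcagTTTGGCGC
E2F1, chr20:33686386-33686505, minus strand: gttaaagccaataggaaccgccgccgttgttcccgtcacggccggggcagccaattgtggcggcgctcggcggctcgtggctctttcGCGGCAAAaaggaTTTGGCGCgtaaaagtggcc
PCNA, chr20:5126623-5126742, minus strand: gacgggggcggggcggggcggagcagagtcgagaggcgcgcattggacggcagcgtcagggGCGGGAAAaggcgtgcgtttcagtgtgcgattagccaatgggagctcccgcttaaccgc
TYMS, chr18:657533-657652, plus strand: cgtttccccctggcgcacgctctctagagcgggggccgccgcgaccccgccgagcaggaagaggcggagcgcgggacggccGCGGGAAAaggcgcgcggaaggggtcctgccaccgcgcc

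MCM6 carried 4 overlapping matches as 2 copies of the same 12 letters, E2F1 carried 2 matches and the other 4 genes 1 each. RefSeq windows of 300 bases, 250 before and 50 after the start, were found for 44 members, 58 windows in all. A match stood in 26 of the 58 windows (44.8%), against 3.31% of all 35116 windows and 5.01% of the windows of tested genes. The windows of 30 mitotic genes held it in 9.68%. A CHR-type element (TTTGAA or TTCGAA), known from genes that peak later in the cell cycle, stood in 5.17% of the members' windows, 64.5% of the mitotic windows and 16.4% of all windows. The members' windows had a median GC content of 66.7%, against 65.0% for tested genes. Under olaparib the 24 tested members with a match had median log2 changes of -1.01 (wild type) and -0.96 (knockout), and the 19 without had -0.90 and -0.80. Under siPARP1 the medians were -0.56 and -0.51 with a match and -0.53 and -0.52 without. The differences between members with and without a match were not tested. PCNA and TYMS, with matches, were among the members that moved least under olaparib in wild-type cells. Under siPARP1 TYMS fell from a mean of 51.6 to 34.3 FPKM in wild-type cells. For each gene printed, the window with the most matches was taken, and another PCNA window held none. The MCM6 stretch runs from -170 to -51 and takes in its matches, where the others run from -120 to -1. That every printed promoter carried a match therefore partly follows from this choice. In the windows of ORC1, RRM2, PRIM1 and FEN1, which also fell strongly under olaparib, no match was found. The match is a description of letters and not of binding. MCM4, MCM5, GINS4, POLD3, DSCC1, RPA2, RPA3, ATAD2, E2F8 and FAM111B had no window.

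Origin recognition and helicase loading genes were all lower under olaparib, 5 of 5 in each genotype. CDT1, which brings MCM2-7 to the origin, had the largest change of the 5 (chromosome 16, 88803213 to 88809258, GRCh38). It stood at 7.08, 8.77 and 6.73 FPKM in the untreated wild-type libraries, at 1.62, 1.68 and 1.46 FPKM under olaparib, and at 4.69, 6.77 and 5.1 FPKM under siPARP1. Every olaparib library was below every other library, while siPARP1 library 2 overlapped with the untreated range. The olaparib change was -1.72 ± 0.156 (log2, SE; limma adjusted p = 5.65e-07) and the siPARP1 change -0.39 ± 0.156 (adjusted p = 0.0466), the latter lost when wild-type untreated library 1 or 2, or siPARP1 library 1 or 3, was left out (adjusted p 0.0652 to 0.173). In knockout cells CDT1 went from 7.39, 7.55 and 6.88 FPKM to 1.61, 1.71 and 1.36 FPKM under olaparib, and to 7.56, 6.55 and 4.24 FPKM under siPARP1. The knockout siPARP1 libraries straddled the untreated range and did not pass the test (-0.25, adjusted p = 0.199).

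GMNN encodes geminin, the inhibitor that binds CDT1 in S and G2 phase, and it had the smallest olaparib change of the group. It stood at 31.6, 25.4 and 32.2 FPKM in untreated wild-type libraries, at 14.8, 15.5 and 15.0 FPKM under olaparib, and at 28.0, 25.7 and 31.2 FPKM under siPARP1. Olaparib lowered it without overlap (-0.93 ± 0.147, adjusted p = 0.000125 in limma), and the siPARP1 libraries lay within the untreated range (-0.07, adjusted p = 0.731). The knockout siPARP1 libraries read 23.2, 17.6 and 14.5 FPKM against 24.4, 19.0 and 23.8 FPKM without treatment, which did not pass the test (-0.28, adjusted p = 0.117). ORC1 and ORC6, subunits of the origin recognition complex, and CDC6, the loading ATPase, fell under both treatments in both genotypes. Their olaparib changes in wild-type cells were -1.37, -1.07 and -1.56, against -0.64, -0.53 and -0.70 under siPARP1.

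All 6 MCM2-7 helicase subunits fell in each of the 4 treatment comparisons, the only role group of which this held. MCM6 (chromosome 2, 135839626 to 135876426) had the largest change. It stood at 39.5, 40.5 and 39.8 FPKM in untreated wild-type libraries, at 9.91, 10.5 and 10.0 FPKM under olaparib and at 28.5, 26 and 26.6 FPKM under siPARP1. The 3 sets were far apart compared with their spread, with 25.3% of the untreated mean left under olaparib and 67.7% under siPARP1. The olaparib change of -1.88 ± 0.041 had an adjusted p of 2.09e-13 in limma. In knockout cells the libraries read 35.6, 36.4 and 35.0 FPKM untreated, 9.39, 9.22 and 9.0 FPKM under olaparib and 24.5, 25.4 and 25.8 FPKM under siPARP1, again in separate ranges.

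MCM7, the most abundant subunit per length, changed least under olaparib. It read 105.0, 107.0 and 101.0 FPKM in untreated wild-type libraries, 55.3, 57.1 and 52.0 FPKM under olaparib, and 63.7, 65.6 and 61.9 FPKM under siPARP1. Its changes were -0.91 ± 0.047 under olaparib and -0.70 ± 0.047 under siPARP1, where those of MCM6, its partner in the same hexamer, were -1.88 ± 0.041 and -0.55 ± 0.041. The difference between the genes was not tested. The other subunits lay between them under olaparib, from -1.14 for MCM5 to -1.45 for MCM2. MCM4 was uneven, at 45.3, 63.5 and 40.6 FPKM in untreated wild-type cells, and in the sums of the transcript table its treatment changes did not pass the test (adjusted p 0.119 to 0.576).

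Helicase activation factors did not move together. CDC45, GINS2 and GINS3 fell in all 4 treatment comparisons and MCM10, a factor that helps to activate the loaded helicase, in 3 of the 4, though its wild-type siPARP1 change (-0.28, adjusted p = 0.0191) lost its call on leaving out untreated library 3, siPARP1 library 1 or siPARP1 library 2 (adjusted p 0.0501 to 0.0824). GINS3 had the largest olaparib change, from 8.34, 7.56 and 8.04 FPKM to 3.02, 2.45 and 2.2 FPKM in wild-type cells, with 5.1, 5.33 and 4.91 FPKM under siPARP1. The ranges did not overlap (-1.34 ± 0.082 and -0.55 ± 0.082, adjusted p = 8.18e-09 and 5.06e-05 in limma).

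GINS4, another subunit of the same GINS complex, had the reverse order. It read 17.9, 18.5 and 20 FPKM in untreated wild-type libraries, 16.5, 14.7 and 14.7 FPKM under olaparib and 8.07, 7.14 and 7.62 FPKM under siPARP1. The siPARP1 libraries were the lowest by a wide margin, at 40.5% of the untreated mean, and the olaparib libraries lay just under the untreated range. The changes were -1.20 ± 0.066 under siPARP1 (limma adjusted p = 2.03e-09) and -0.28 ± 0.066 under olaparib (adjusted p = 0.00318). In knockout cells the libraries read 18, 18.8 and 18.5 FPKM untreated, 17.1, 18.5 and 17.3 FPKM under olaparib, and 8.55, 7.75 and 7.23 FPKM under siPARP1. There the olaparib range overlapped with the untreated one (-0.06, adjusted p = 0.471). GINS1 passed the test in no comparison: its untreated wild-type libraries read 11, 9.53 and 4.6 FPKM, a spread as wide as any difference between groups.

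**Figure D2:**
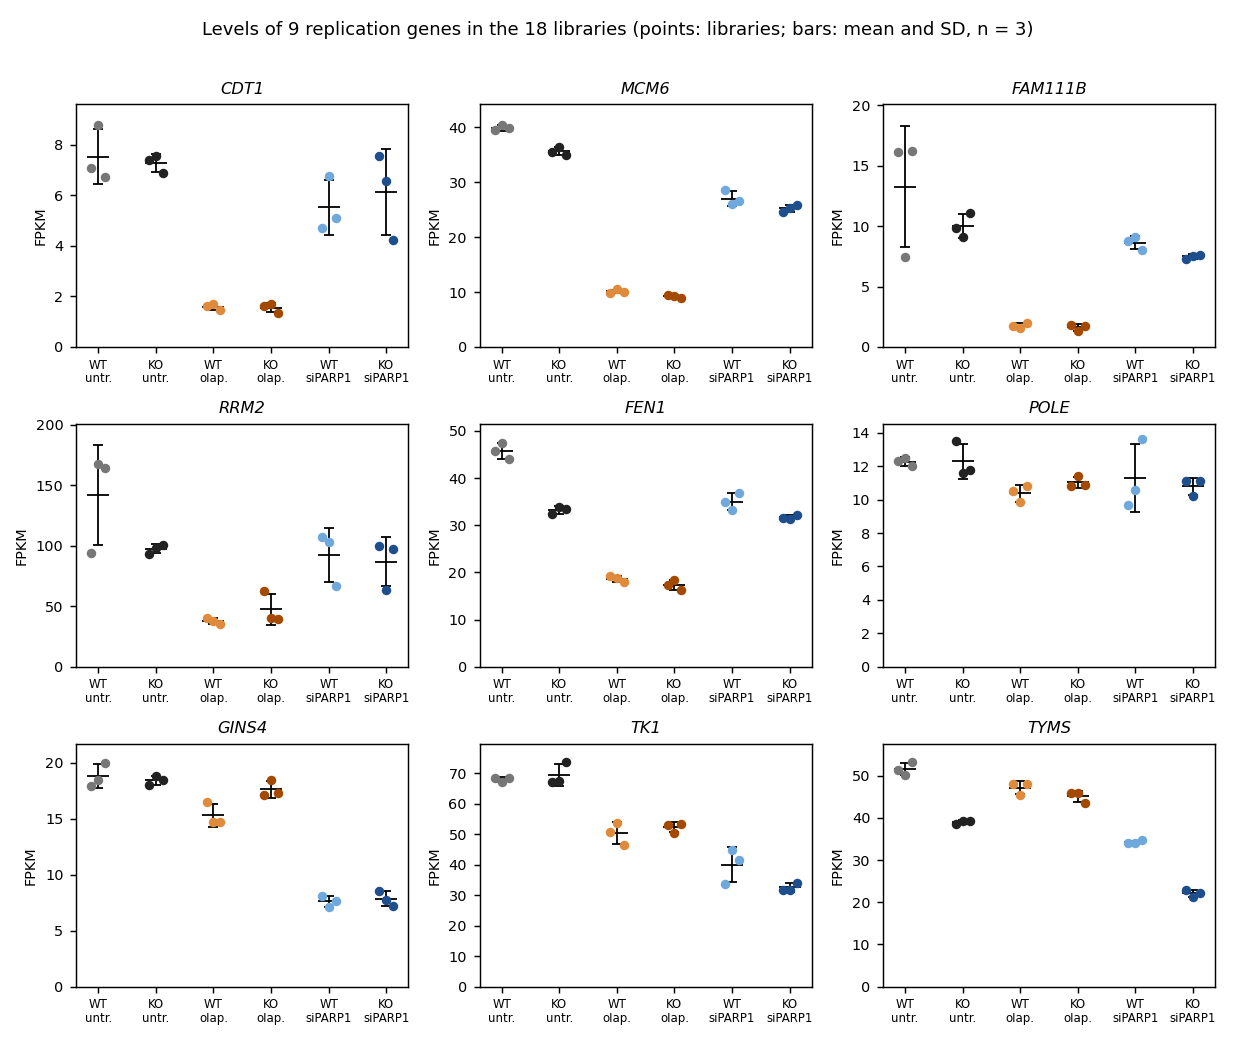
FPKM (vertical axes, from 0) of 9 members in each of the 18 libraries (points), with mean and SD of the 3 libraries per group; WT is wild type and KO the TRIM27 knockout. CDT1, MCM6, FAM111B, RRM2 and FEN1 are lowest under olaparib, GINS4, TK1 and TYMS are lowest under siPARP1, and POLE lies between 9.69 and 13.6 FPKM in all 18 libraries.

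Of the 8 polymerase and primase genes, 7 fell under olaparib in each genotype and 6 under siPARP1 in each. PRIM1, the catalytic primase subunit that lays down RNA primers, changed most under olaparib. Its wild-type libraries read 13.4, 15.1 and 15.6 FPKM untreated, 5.0, 4.77 and 4.45 FPKM under olaparib and 6.54, 8.34 and 7.43 FPKM under siPARP1, with no overlap between groups. The changes were -1.45 ± 0.084 and -0.90 ± 0.084 (limma adjusted p = 5.05e-09 and 5.44e-07). PRIM2, the other primase subunit, was as low under siPARP1 (12.2, 11.9 and 12.2 FPKM) as under olaparib (12.3, 13.0 and 12.2 FPKM), from 21.0, 20.9 and 21.0 FPKM untreated. NACA, on the same strand as PRIM1 and at a mean of 353.64 FPKM against 8.74 FPKM, shares 1.35% of the PRIM1 exon bases.

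POLE, the catalytic subunit of the leading-strand polymerase epsilon, did not pass the test in any treatment comparison of the main fit. It did pass under 3 alternative settings for olaparib in wild type and under 2 for siPARP1 in each genotype. It read 12.3, 12.5 and 12 FPKM in untreated wild-type libraries, 10.5, 9.83 and 10.8 FPKM under olaparib and 9.69, 10.6 and 13.6 FPKM under siPARP1. The olaparib libraries lay below the untreated ones (-0.22 ± 0.09, limma adjusted p = 0.0553) and siPARP1 library 3 above them. POLE2, the second subunit of the same enzyme, fell by 1.28 on the log2 scale under olaparib and by 0.55 under siPARP1, from 11.2, 11.5 and 12.2 FPKM to 4.39, 4.52 and 3.71 FPKM and to 7.27, 7.24 and 8.35 FPKM. POLA1 and POLA2 of polymerase alpha and POLD1 of polymerase delta fell in all 4 treatment comparisons, between -0.38 and -1.13. POLD3 was uneven (13.2, 10.5 and 7.59 FPKM untreated in wild type) and fell under olaparib (-0.94 in wild type, adjusted p = 0.00294), while its siPARP1 changes did not pass the test (adjusted p = 0.114 and 0.836).

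Among the clamp genes PCNA barely moved while most of its loaders fell. PCNA, the ring that tethers polymerases to DNA (chromosome 20, 5114953 to 5126626), read 106.0, 110.0 and 112.0 FPKM in untreated wild-type libraries, 91.1, 93.7 and 89.4 FPKM under olaparib, and 104.0, 106.0 and 107.0 FPKM under siPARP1. Olaparib lowered it by a small step without overlap (-0.26 ± 0.042, limma adjusted p = 0.000149), and the siPARP1 range overlapped with the untreated one (-0.05, adjusted p = 0.343). In knockout cells it read 76.7, 82.1 and 80.1 FPKM untreated, 84.4, 88.8 and 80.6 FPKM under olaparib and 79.1, 79.6 and 78.1 FPKM under siPARP1. Both treated ranges overlapped with the untreated one in the knockout, and neither change passed the test (0.09 and -0.01, adjusted p = 0.108 and 0.832).

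RFC3, a subunit of the replication factor C clamp loader, had the largest olaparib change of the group, from 17.9, 17.1 and 17.6 FPKM to 7.71, 7.84 and 8.27 FPKM in wild-type cells. Its siPARP1 libraries read 12.8, 13.1 and 12.7 FPKM, between the others without overlap (-1.05 ± 0.039 and -0.42 ± 0.039). RFC2, in the same loader, read 23.2, 24.3 and 21.9 FPKM untreated, 15.5, 22.0 and 15.8 FPKM under olaparib and 12.5, 12.3 and 14.1 FPKM under siPARP1. Olaparib library 2 reached the untreated range, and the olaparib change (-0.38 ± 0.145, limma adjusted p = 0.0451) was lost when any of the 3 untreated wild-type libraries, olaparib library 1 or olaparib library 3 was left out (adjusted p 0.0623 to 0.16). RFC4, RFC5 and DSCC1, the last a subunit of an alternative loader, fell in all 4 treatment comparisons. The RFC5 calls in knockout cells were lost under 5 alternative settings for olaparib (adjusted p 0.0692 to 0.14) and 3 for siPARP1 (adjusted p 0.0512 to 0.0895).

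Of the 6 genes of single-strand binding, the lagging strand and uracil removal, 6 fell under olaparib in each genotype. Under siPARP1, 4 fell in wild-type and 2 in knockout cells. In knockout cells the olaparib call was lost under 8 alternative settings for UNG and 7 for RPA3. FEN1, the nuclease that trims Okazaki fragment flaps (chromosome 11, 61792637 to 61797244), read 45.8, 47.4 and 44.1 FPKM in untreated wild-type libraries, 19.2, 18.9 and 17.9 FPKM under olaparib and 34.9, 33.3 and 36.8 FPKM under siPARP1. The 3 ranges were apart, with changes of -1.25 ± 0.051 and -0.38 ± 0.051 (limma adjusted p = 1.18e-10 and 2.32e-05). In knockout cells it read 32.3, 33.8 and 33.5 FPKM untreated, 17.3, 18.3 and 16.2 FPKM under olaparib and 31.5, 31.4 and 32.2 FPKM under siPARP1. There the siPARP1 libraries lay just under the untreated ones and did not pass the test (-0.06, adjusted p = 0.318). TMEM258, on the opposite strand, covers 6.7% of the FEN1 exon bases at a mean of 64.66 FPKM, against 30.28 FPKM for FEN1.

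RPA3, the smallest subunit of the single-strand binding complex RPA, read 14.3, 15.9 and 16.2 FPKM in untreated wild-type libraries, 12.6, 12.9 and 12.3 FPKM under olaparib and 14.8, 16.7 and 14.2 FPKM under siPARP1. All olaparib libraries lay below the untreated range (-0.27 ± 0.074, limma adjusted p = 0.00772). RPA2 was alike, with -0.53 under olaparib and -0.05 (adjusted p = 0.663) under siPARP1 in wild-type cells. RPA1, the large subunit, fell under both treatments in both genotypes, by 0.43 and 0.49 on the log2 scale in wild-type cells. LIG1, the ligase that seals Okazaki fragments, fell by 0.73 under each treatment in wild-type cells, but the sums of the transcript table gave -0.49 and -0.39 with adjusted p = 0.257 and 0.36, and turned its sign in knockout cells (0.49 and 0.50, adjusted p = 0.251 and 0.23). UNG, which removes uracil from DNA, had a single very low library under siPARP1 in wild-type cells (7.23, 18.8 and 17.5 FPKM, against 26.4, 26.3 and 25.4 FPKM untreated), and all 3 lay below the untreated range.

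Claspin and its fork partners separated by treatment. CLSPN, the adaptor that passes the ATR signal to CHK1, read 8.58, 8.99 and 7.11 FPKM in untreated wild-type libraries, 1.8, 2.16 and 2.42 FPKM under olaparib and 4.75, 4.84 and 5.52 FPKM under siPARP1. The groups did not overlap, with changes of -1.56 ± 0.132 and -0.61 ± 0.132 (limma adjusted p = 2.74e-07 and 0.00135). TIPIN, which binds TIMELESS at the fork, read 8.9, 9.86 and 8.9 FPKM untreated, 7.15, 4.89 and 5.89 FPKM under olaparib and 9.79, 9.32 and 8.83 FPKM under siPARP1, the last within or just under the untreated range. TIPIN and TIMELESS fell under olaparib by 0.56 and 0.63 on the log2 scale and did not pass the test under siPARP1 in either genotype (adjusted p 0.0729 to 0.926).

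Nucleotide supply genes differed in how far they moved. RRM2, the regulatory subunit of ribonucleotide reductase, read 94.2, 168.0 and 164.0 FPKM in untreated wild-type libraries and 40.6, 38.1 and 35.0 FPKM under olaparib (-1.83 ± 0.247, limma adjusted p = 2.87e-05). Under siPARP1 it read 107.0, 103.0 and 66.9 FPKM, and untreated library 1 lay among those values. That siPARP1 change, -0.60 with adjusted p = 0.0569, was -0.87 with adjusted p = 0.00782 without untreated library 1, so a single library decided the call. RRM1, the large subunit, was even, at 69.6, 66.9 and 68.3 FPKM untreated, 39.3, 36.8 and 38.9 FPKM under olaparib and 51.8, 57.2 and 53.4 FPKM under siPARP1.

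TYMS, thymidylate synthase (chromosome 18, 657604 to 673578), moved least of all members under olaparib in wild-type cells and in opposite directions by genotype. Its wild-type libraries read 51.3, 50.3 and 53.2 FPKM untreated, 48.0, 45.5 and 48.1 FPKM under olaparib and 34, 34.1 and 34.7 FPKM under siPARP1. Its knockout libraries read 38.5, 39.3 and 39.2 FPKM untreated, 45.9, 45.9 and 43.6 FPKM under olaparib and 22.9, 21.3 and 22.3 FPKM under siPARP1. Within each genotype the 3 ranges were apart, and the olaparib libraries of the knockout lay above its untreated ones. The olaparib change was -0.13 ± 0.04 in wild type (limma adjusted p = 0.0191) and 0.21 ± 0.04 in knockout cells (adjusted p = 0.000672). The wild-type fall was lost without untreated library 3 (adjusted p = 0.0799) or olaparib library 2 (adjusted p = 0.0865). ENOSF1, on the opposite strand, covers 39.15% of the exon bases of TYMS at a mean level of 5.56 FPKM against 39.9 FPKM, and the counting's strand setting is unknown here, so the reads of the pair cannot be told apart where they overlap.

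TK1, thymidine kinase, fell more under siPARP1 than under olaparib. It read 68.5, 66.9 and 68.4 FPKM in untreated wild-type libraries, 50.7, 53.6 and 46.4 FPKM under olaparib and 33.5, 44.9 and 41.6 FPKM under siPARP1, without overlap. Its knockout libraries read 67.2, 67.5 and 73.6 FPKM untreated, 52.9, 50.4 and 53.4 FPKM under olaparib and 31.6, 31.8 and 34.1 FPKM under siPARP1. The siPARP1 changes were -0.76 ± 0.085 and -1.07 ± 0.085 (limma adjusted p = 3.29e-06 and 7.82e-08).

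Chromatin assembly genes fell under olaparib in 5 of 5 cases in each genotype and under siPARP1 in 4 of 5. ATAD2, a bromodomain ATPase and E2F target, read 23.6, 21.4 and 21.6 FPKM in untreated wild-type libraries, 8.67, 8.86 and 8.41 FPKM under olaparib and 20.4, 17.6 and 14.3 FPKM under siPARP1. The olaparib libraries stood far below the rest (-1.27 ± 0.09, limma adjusted p = 4.21e-08), and the siPARP1 libraries just below the untreated ones (-0.34 ± 0.09, adjusted p = 0.00503). UHRF1, which brings the maintenance DNA methyltransferase to new DNA, had the smallest olaparib change, from 28.6, 31.0 and 29.5 FPKM to 17.6, 19.2 and 17.9 FPKM, with 21.5, 21.4 and 19.6 FPKM under siPARP1. CHAF1A and CHAF1B of chromatin assembly factor 1 fell in all 4 treatment comparisons, each by 1.01 on the log2 scale under olaparib in wild-type cells. SLBP, which binds the stem-loop of histone mRNAs, fell under olaparib (-0.72 in wild type) but read 33.7, 31.4 and 28.9 FPKM under siPARP1 against 30.0, 28.1 and 28.6 FPKM untreated (0.11, adjusted p = 0.164).

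The E2F group held the largest olaparib change of all 53 tested members. FAM111B, a trypsin-like protease gene that peaks in S phase, read 16.1, 7.47 and 16.2 FPKM in untreated wild-type libraries and 1.71, 1.57 and 1.99 FPKM under olaparib, a change of -2.3 ± 0.2 (limma adjusted p = 3.72e-07). Its siPARP1 libraries read 8.74, 9.1 and 8.05 FPKM, and untreated library 2 lay below all of them. The siPARP1 change of -0.49 (adjusted p = 0.0521) became -0.83 (adjusted p = 1.34e-05) without that library. In knockout cells it read 9.88, 9.11 and 11.1 FPKM untreated, 1.85, 1.28 and 1.71 FPKM under olaparib and 7.31, 7.51 and 7.64 FPKM under siPARP1. The knockout siPARP1 libraries lay below the untreated ones, though the change did not pass the test (-0.37, adjusted p = 0.13).

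E2F8, a repressing E2F factor, had the smallest olaparib change of that group, from 7.86, 7.62 and 7.46 FPKM to 4.92, 4.71 and 4.86 FPKM, with 4.5, 4.78 and 5.02 FPKM under siPARP1, so the treatments overlapped with each other but not with untreated cells. E2F1, the activating factor, read 7.96, 8.41 and 7.69 FPKM untreated, 2.78, 3.14 and 3.49 FPKM under olaparib and 4.87, 4.86 and 5.65 FPKM under siPARP1, in 3 separate ranges. DTL, the substrate receptor of the ligase that degrades CDT1 in S phase, fell by 1.67 under olaparib and by 0.85 under siPARP1 on the log2 scale in wild-type cells. E2F2, below the filter, read 0.904, 0.961 and 0.996 FPKM untreated, 0.167, 0.102 and 0.0993 FPKM under olaparib and 0.984, 0.729 and 0.734 FPKM under siPARP1 in wild-type cells. Fitted without the filter over 41488 genes, it fell under olaparib (-0.80, limma adjusted p = 7.29e-07) and did not pass the test under siPARP1 (-0.11, adjusted p = 0.324).

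Set directly against siPARP1, olaparib gave the lower level for most members and the higher level for a few. In wild-type cells 38 of 53 members were lower under olaparib and 4 higher, beside 28.3% and 23.4% of all tested genes. In knockout cells 35 were lower and 7 higher, beside 29.7% and 22.4%. The median differences were -0.50 and -0.41, against -0.051 and -0.061 over all genes. The agents differ in their target, in duration and in the transfection step, and these cannot be told apart here. FAM111B (-1.81 in wild type), MCM6 (-1.33), CDT1 (-1.32) and RRM2 (-1.24) lay furthest to the olaparib side. The 4 members higher under olaparib in both genotypes were GINS4 (0.92 ± 0.066 in wild type), TYMS (0.45 ± 0.04), RFC2 (0.41 ± 0.145) and TK1 (0.33 ± 0.085), of which RFC2 in wild-type cells was lost without olaparib library 2 (adjusted p = 0.149) or siPARP1 library 1 or 2 (adjusted p = 0.0751 and 0.0803). RPA1, PRIM2 and E2F8 were higher in knockout cells by 0.39, 0.38 and 0.25 and did not pass the test in wild-type cells, and whether the genotypes differ in this contrast was not tested.

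**Figure D3:**
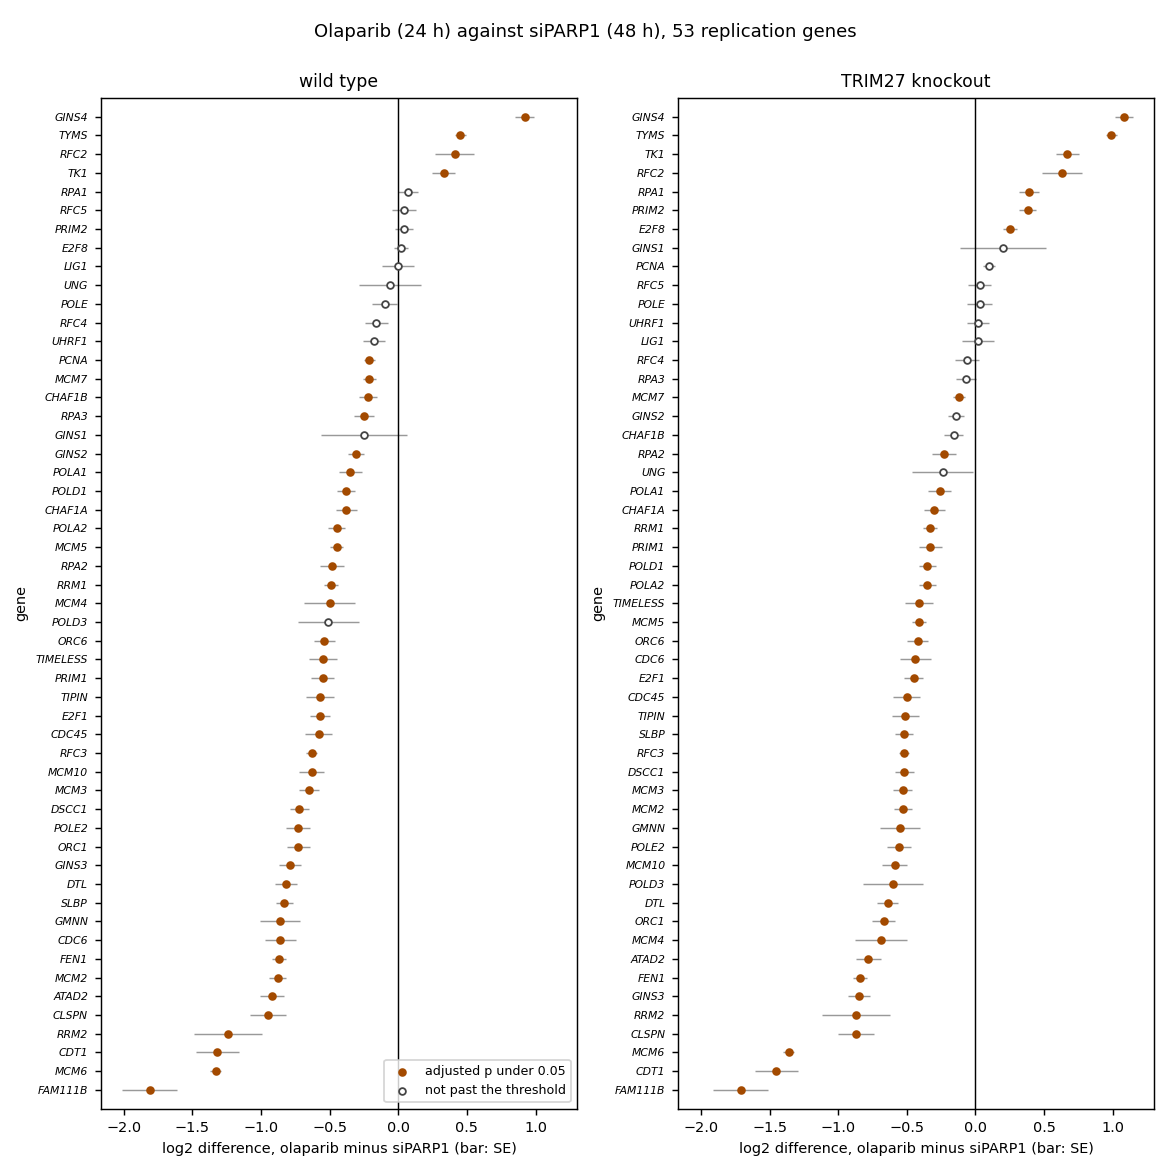
Log2 difference between olaparib and siPARP1 libraries (horizontal axis, bars give the SE) for the 53 tested members in wild-type (left) and knockout cells (right), sorted by size, filled where limma's adjusted p was under 0.05. In both panels GINS4, TYMS, RFC2 and TK1 lie to the right of 0 and FAM111B, MCM6 and CDT1 at the far left.

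Without treatment, TRIM27 knockout cells had modestly lower levels of some members. Of 53 members 11 were lower and 1 higher than in wild-type cells, beside 10.9% of all tested genes lower and 9.58% higher. The median difference was -0.13 against -0.009. FEN1 (-0.45 ± 0.051), PCNA (-0.45 ± 0.042), RPA3 (-0.40 ± 0.074) and TYMS (-0.39 ± 0.04) differed most among the members called, with limma adjusted p of 1.89e-05, 2.48e-06, 0.00148 and 6.7e-06. RPA3 read 11.7, 12.3 and 10.5 FPKM in untreated knockout libraries, and none of the 4 genes overlapped between the genotypes.

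CDC6 read 14.7, 14.4 and 13.8 FPKM in wild-type and 12.5, 10.1 and 10.8 FPKM in knockout libraries, also without overlap (-0.34 ± 0.113, limma adjusted p = 0.0484), but lost its call when any of 5 of the 6 libraries was left out. RFC4 read 21.0, 26 and 26.6 FPKM against 20.6, 18.5 and 20.3 FPKM, and the lowest wild-type library nearly met the knockout range (-0.29, adjusted p = 0.0285); the call was lost without wild-type library 2 or 3 or knockout library 2 or 3 (adjusted p 0.0501 to 0.119). MCM7 read 105.0, 107.0 and 101.0 FPKM in wild-type and 85.6, 90.4 and 83.3 FPKM in knockout libraries, without overlap. MCM7, E2F1, GINS2, POLA2 and MCM6 were lower by 0.16 to 0.27. The call was lost under 13 alternative settings for GINS2, 11 for POLA2, 8 for E2F1, 4 for MCM6 and 1 for MCM7. MCM5 was the member higher in knockout cells, at 33.0, 35.2 and 32.9 FPKM against 29.3, 27.7 and 28.8 FPKM (0.23 ± 0.049, adjusted p = 0.00417).

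**Figure D4:**
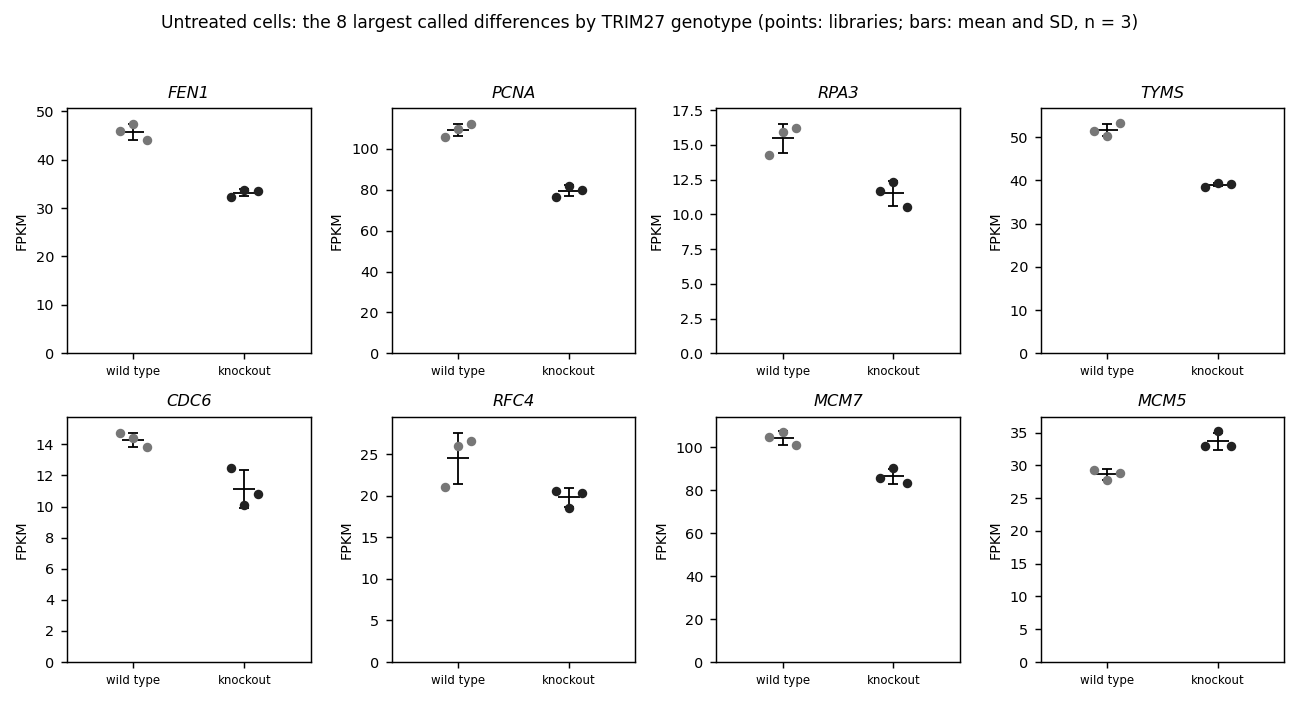
FPKM (vertical axes, from 0) in the 3 wild-type and 3 knockout libraries without treatment, with mean and SD, for the 8 members with the largest called differences. The points of the genotypes do not overlap in any panel; 7 genes are lower in the knockout and MCM5 is higher.

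The count of 11 depended on single libraries, at 7 without wild-type library 3, 7 without knockout library 2 and 5 without knockout library 3. When the median deviation of each 10 Mb stretch of the genome was removed from every library, which takes out differences shared by neighbouring genes, 6 members stayed lower. MCM5 (0.07, limma adjusted p = 0.458) and RPA3 (-0.18, adjusted p = 0.113) then did not pass the test. In the main fit 20.8% of members and 10.9% of all tested genes were called lower. No all-gene share is given at these other settings, so the smaller counts have no background of their own.

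Under siPARP1 the same genotype contrast gave 14 members lower in knockout cells and 1 higher, beside 11.2% and 11.8% of all genes. GMNN (-0.61 ± 0.147), TYMS (-0.61 ± 0.04), RPA3 (-0.51 ± 0.074), PCNA (-0.42 ± 0.042) and MCM2 (-0.33 ± 0.065) differed most, with limma adjusted p from 8.7e-08 to 0.00757. MCM2 read 14.8, 16.3 and 15.0 FPKM in wild-type and 11.6, 11.5 and 12.9 FPKM in knockout libraries under siPARP1, against overlapping untreated values of 24.1, 22.0 and 23.7 FPKM and 22.4, 25.2 and 23.8 FPKM. The count of 14 was 8 without wild-type siPARP1 library 3 and 9 without knockout siPARP1 library 2, again with no all-gene share at those settings. The knockout levels without treatment and under siPARP1 were lower for 6 members in common, and the matching share of all tested genes was not counted. Under olaparib, RPA3 was lower and MCM5, UHRF1 and E2F8 were higher in knockout cells, 1 and 3 of 53, beside 7.16% and 5.68% of all genes. At an unadjusted p under 0.05 in limma the members' counts were 5 and 7, with no all-gene share counted at that threshold.

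The responses of the members to each agent were alike in the 2 genotypes, which share no library. Across the 53 tested members the log2 changes under olaparib in wild-type and knockout cells had a Pearson's r of 0.94 and a Spearman's rho of 0.96, and those under siPARP1 an r of 0.80 and a rho of 0.79; genes are not independent replicates. The olaparib change was less negative or more positive in the knockout for 48 of 53 members, with a median difference of 0.14. The siPARP1 change was so for 27, with a median difference of 0.01. Over all tested genes the median differences were -0.005 and 0.007, and the matching share of genes was not counted. Under olaparib the median was also positive for the mitotic (0.16), G1/S control (0.09) and other replication genes (0.08) described below. Each difference in response includes the starting difference between the genotypes. Over the 53 members the median of knockout minus wild type was -0.13 without treatment, where 11 were called lower and 1 higher. Under olaparib that median was 0.02. A smaller response of the knockout therefore cannot be told apart from its lower start.

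Few of these differences passed the interaction test. Under olaparib 3 members did with a positive interaction (knockout change minus wild-type change) and 0 with a negative one, beside 1.4% and 1.66% of all tested genes. These 3 were PCNA (0.34 ± 0.059, limma adjusted p = 0.00552), FEN1 (0.34 ± 0.072, adjusted p = 0.0185) and TYMS (0.33 ± 0.056, adjusted p = 0.00532). At an unadjusted p under 0.05 in limma the members' counts were 11 and 0. The all-gene shares above are at the adjusted threshold and are no background for those counts. For each of PCNA, FEN1 and TYMS, the knockout libraries lay below wild type without treatment and closer to it under olaparib. Under siPARP1 FEN1 changed less in the knockout (0.31 ± 0.072, adjusted p = 0.0217), and MCM2 (-0.37 ± 0.092, adjusted p = 0.0337) and TYMS (-0.21 ± 0.056, adjusted p = 0.0434) fell further there, beside 2.74% of all genes with a higher and 2.52% with a lower interaction. The siPARP1 interactions were fragile: leaving out 1 of 12 libraries lost the call in 4 cases for FEN1, 8 for MCM2 and 10 for TYMS, whereas the olaparib interactions were kept in all 12 cases each.

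**Figure D5:**
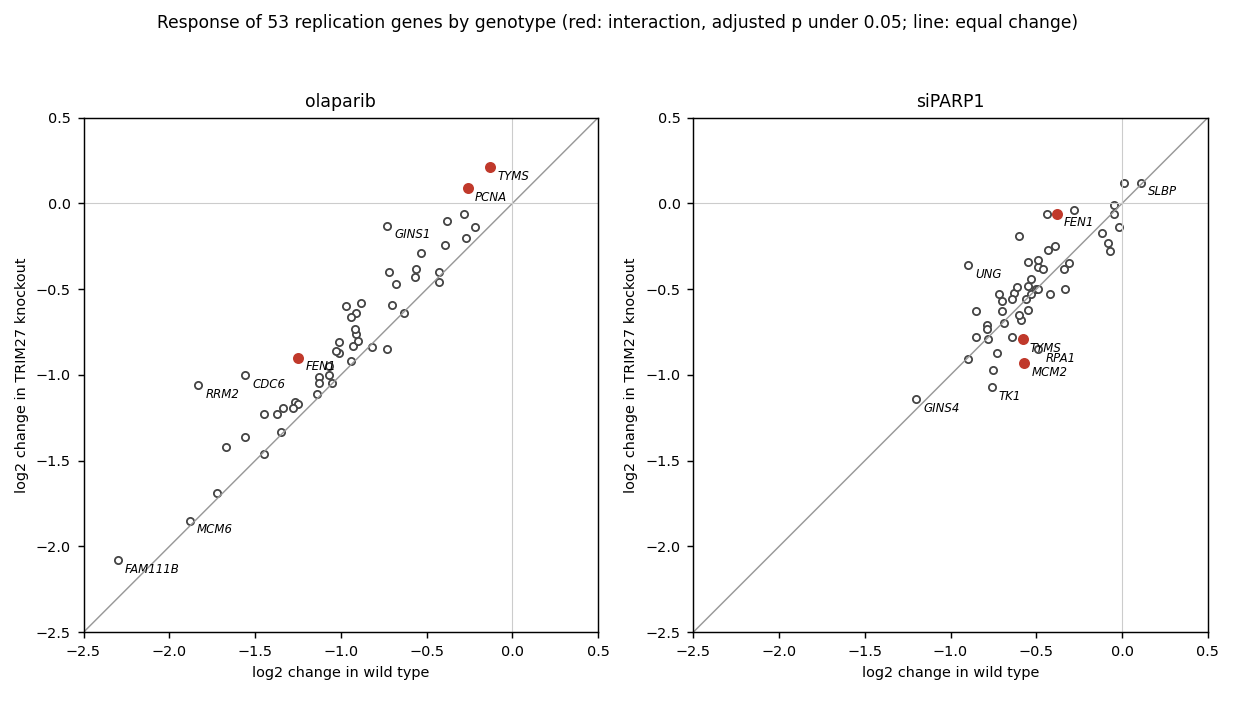
Log2 change of each of the 53 tested members in wild-type cells (horizontal) and knockout cells (vertical) under olaparib (left) and siPARP1 (right), with the line of equal change and in red the members whose interaction had a limma adjusted p under 0.05. Under olaparib most points lie on or above the line; under siPARP1 they lie on both sides of it and span a shorter range.

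Genes of neighbouring functions were counted in the same way. Of 43 other replication genes, 28 fell and 3 rose under olaparib in wild-type cells (median -0.43), and 27 fell and 4 rose under siPARP1 (median -0.32), beside 20.4% of all genes lower and 24.9% higher under olaparib and 22.3% and 29.5% under siPARP1. The furthest falls under olaparib were RNASEH2B (-1.07), a subunit of the nuclease that removes ribonucleotides from DNA, the histone chaperone gene ASF1B (-1.04) and the helicase gene HELLS (-1.0). RRM2B, the p53-inducible ribonucleotide reductase subunit, rose by 1.13 in wild-type and by 1.12 in knockout cells under olaparib (limma adjusted p = 1.29e-09 and 1.21e-09), opposite to RRM2. Of 27 tested G1/S control genes, 11 fell and 3 rose under olaparib in wild-type cells, with CCNE2 (-1.67), CCNA2 (-1.43) and FBXO5 (-1.14) furthest down and CCND1 up by 0.75. Under siPARP1, 11 of the 27 fell and 6 rose. As shares of the 27 these are 40.7% lower under each agent and 11.1% and 22.2% higher, beside the same all-gene shares.

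Most mitotic genes fell under both agents. Of 30, 27 fell under olaparib (median -0.80) and 30 under siPARP1 (median -0.93) in wild-type cells, with CDK1 (-1.42) furthest down under olaparib and PRC1 (-1.65) under siPARP1. In the direct contrast in wild-type cells 7 mitotic genes were lower and 11 higher under olaparib (median 0.09), beside 28.3% and 23.4% of all genes, against 38 and 4 of the 53 replication members (median -0.50). In knockout cells the mitotic counts were 4 and 17 (median 0.23), beside 29.7% and 22.4% of all genes, against 35 and 7 for the members (median -0.41).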

How the data were processed

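The authors deposited FPKM tables per gene and per transcript for 18 libraries made from oligo(dT)-selected RNA, per the labels' protocols. Per the submitters' processing notes, the build was GRCh38 and the tools were StringTie 2.2.1, DESeq2 1.38.3, featureCounts 2.0.3, HISAT2 2.2.1 and fastp 0.23.2. The step that made the deposited FPKM values, its annotation and its strandedness are not given in the sources used here. Counts were not used here, so absolute depth is unknown. Between 43.41 and 49.77% of a library's FPKM belonged to unnamed loci.

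The 15764 genes that reached 1 FPKM in 3 or more libraries were tested in limma 3.58.1 (R 4.3.3) as log2(FPKM + 1), with the 6 groups in 1 model a mean-dependent prior and 12 residual degrees of freedom, and Benjamini-Hochberg adjustment over all of them. The log2 scale with a pseudocount of 1 understates changes of low genes. On simulated data for olaparib in wild type, over 15764 genes, 59% of 100 genes changed by 0.5 and 88% of 100 changed by 1 (log2) were recovered, with 7 false calls. The changed genes were drawn from those with a mean log2(FPKM + 1) over 3. Recovery at lower levels, where members such as CDT1 and ORC1 lie, was not measured. The simulated noise was independent between genes, and far fewer genes changed than were called in the data. Gene positions are from GENCODE 29; promoter windows are from RefSeq. The first 25 bases after the RefSeq start were found near the start of a GENCODE 29 transcript for 5 of the 6 promoters printed; for MCM6 only a run of 20 bases from the 50 after the start was found, a looser check made after the first had failed.

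Members and lists were chosen with earlier results of these data known. Named with every library's value were the largest and smallest olaparib change in wild type per role, members called in an interaction or between the untreated genotypes (at most 8, by size), and members called against the rest; other lists give counts and their largest changes. The deviations of libraries with the same number in different groups had r from -0.071 to 0.087 over 45 pairs. Of 18 libraries, 10 correlated best with their own number. Whether the numbers pair cultures is not known, and the main fit used no block for them. Alternatives were another pseudocount, no filter, median-of-ratios scaling, rescaling over named genes, transcript sums, only the groups compared, a replicate block, removal of 10 Mb medians, each library left out and, added later, no mean-dependent prior.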

Additional observations from a re-analysis of the deposited data

Results flagged for a closer look

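The olaparib response of 3 members differed between the genotypes by the interaction test. Knockout minus wild type was 0.34 for PCNA (limma adjusted p = 0.00552), 0.34 for FEN1 (adjusted p = 0.0185) and 0.33 for TYMS (adjusted p = 0.00532) on the log2 scale. Over the other settings and left-out libraries the adjusted p ran from 0.00234 to 0.0286 for PCNA, 0.00806 to 0.0497 for FEN1 and 0.00301 to 0.0199 for TYMS. All 3 were also lower in untreated knockout cells, which enter the same test.

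The siPARP1 response differed by -0.37 for MCM2 (limma adjusted p = 0.0337), 0.31 for FEN1 (adjusted p = 0.0217) and -0.21 for TYMS (adjusted p = 0.0434). Over the alternatives the adjusted p ran from 0.0252 to 0.081 for MCM2, 0.0171 to 0.0534 for FEN1 and 0.021 to 0.0954 for TYMS.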

How the results depend on the processing

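Of 298 called results of single members, 237 were kept under every alternative. Of 4239 recomputed values 3976 kept the call, 260 lost it and 3 changed sign. Beside the members' counts at the alternative settings below, no share of all tested genes is given. The sign changed in the sums of the transcript table for LIG1 in knockout cells (0.49 under olaparib, 0.50 under siPARP1) and MCM4 between the agents in wild type (0.18); the cause was not tested. The all-gene median under siPARP1 moved from 0.072 to -0.028 in wild type and from 0.07 to -0.037 in knockout cells when libraries were rescaled over named genes, and the members' counts went from 41 and 37 lower to 45 and 44. Among them, RRM2 and FAM111B in wild-type cells passed the test when rescaled (adjusted p = 0.0263 and 0.0242) and with median-of-ratios scaling (0.0303 and 0.0307).

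The 11 members lower in untreated knockout cells became 7 with a pseudocount of 0.1, 7 without the filter, 6 rescaled, 7 with only the groups compared and 6 with 10 Mb medians removed, where the 1 higher became 0. Under olaparib, the 1 lower became 2 with a pseudocount of 0.1 and 0 with 10 Mb medians removed, and the 3 higher became 5 with median-of-ratios scaling and 1 with only the groups compared. Under siPARP1, the 14 lower became 8 without the filter, 6 with only the groups compared and 9 with 10 Mb medians removed, and the 1 higher became 2 and 0 in the last 2 of these. With only the groups compared, members higher under olaparib than siPARP1 in wild type went from 4 to 2. The 2 lower siPARP1 interactions became 0 without the filter, 0 with only the groups compared, 1 with no mean-dependent prior (an alternative chosen after seeing the data) and 1 with the replicate block. The cause of these moves was not tested.

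Leaving out each library gave 5 to 10 lower in untreated knockout cells and 8 to 11 under siPARP1. For knockout against wild type under olaparib it gave 1 to 2 lower and 2 to 4 higher. It gave 50 to 51 and 44 to 45 lower under olaparib, 40 to 42 and 36 to 40 under siPARP1 (wild type, then knockout), 1 to 2 higher under olaparib in the knockout, 0 to 1 higher under siPARP1 in wild type, and 0 to 2 lower and 0 to 1 higher siPARP1 interactions. With the replicate block, 10 members were lower in the untreated knockout, 51 and 47 fell under olaparib, 42 and 38 under siPARP1, and 12 were lower in the knockout under siPARP1; 10 of 18 libraries correlated best with their own number. Without counts, the depth behind low members such as E2F2 is not known.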
